A study of Homo sapiens with 8 samples.

Results

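Replication origins that lie more than 100 kb from every protein-coding gene body, called far origins here, were described in 4 HCT116 lines mapped by SNS-seq. SNS-seq reads out the nascent DNA strands that form where replication has just started, after selection by size and digestion of other DNA by lambda exonuclease. HCT116 is an epithelial colon cancer line, and all 4 lines lack p53. The WT line keeps every subunit of the origin recognition complex (ORC), and the *ORC1Δ*, *ORC2Δ*, and *ORC5Δ* lines were each derived from it by inactivating the *ORC1*, *ORC2*, or *ORC5* gene with CRISPR–Cas9. The origin tables hold no measure that checks the knockouts. As a limit of these models, each knockout line leaves a different set of ORC subunits on chromatin. A trace of truncated ORC2 has been described in *ORC2Δ* cells by another group, whereas the authors did not detect it on their own blots. Each line was sequenced as 2 biological replicates, which makes 8 samples.

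Far origins were chosen by position alone, on chromosomes 1 to 22 of hg38, with gene bodies from GENCODE release 44. The table of WT and *ORC1Δ* origins held 4866 far origins of 41785 on these chromosomes (11.6%). The table of WT and *ORC2Δ* origins held 4929 of 43698 (11.3%), and that of WT and *ORC5Δ* origins held 5200 of 46021 (11.3%). The remaining origins, which lie inside a protein-coding gene or within 100 kb of one, are called other origins below. The origins of the *ORC1Δ* table closest to the limit lay 100035 bp from *TNR* on chromosome 1 and, on the near side, 99983 bp from *MCHR2* on chromosome 6. The first had 8.73 RPM in WT and 11.7 RPM in *ORC1Δ* cells, and the second had 109 and 94 reads. RPM relates the reads of an origin to those that the line has in all origins of the table, in reads per 1 M reads.

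ORC marks sites where the MCM2–7 helicase is loaded in G1, and some of these sites fire in S phase. Most mapped human origins lie in or near genes, often at promoters and CpG islands, in sequence rich in G on one strand. Gene-poor chromosome regions tend to replicate late, and origins there are sparse.

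Each table gave 1 merged count per line and origin, between 6416892 and 8523971 reads per line in all. Far origins held 9.72% to 10.0% of the WT reads. The fewest reads that WT and the knockout line together had in a far origin were 82 in the *ORC1Δ* table, 69 in the *ORC2Δ* table, and 82 in the *ORC5Δ* table. No spread between replicates can be given, so no test between lines was possible and no p-value is reported. Intervals are 95% intervals that cover counting error (single origins) or the choice of origins (shares and medians). Reads may include copies of the same molecule, which these intervals do not cover.

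To show the sequence of far origins, the 150 bases with the largest difference between the number of G and of C are printed 5′ to 3′ on the plus strand of hg38, with runs of at least 3 G or 3 C in capitals. The 3 origins that follow were higher in each knockout line than in WT, and each holds G on one strand almost without C. They are 3 of the 5 such origins described further on, where the choice is given, and the makeup of the other 2 is not shown.
chr2:217069178-217069327, near *TNP1*: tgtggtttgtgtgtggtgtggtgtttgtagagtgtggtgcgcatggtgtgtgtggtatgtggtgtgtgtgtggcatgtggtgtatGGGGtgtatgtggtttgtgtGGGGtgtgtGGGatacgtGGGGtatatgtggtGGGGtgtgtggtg
chr9:88730960-88731109, near *NXNL2*: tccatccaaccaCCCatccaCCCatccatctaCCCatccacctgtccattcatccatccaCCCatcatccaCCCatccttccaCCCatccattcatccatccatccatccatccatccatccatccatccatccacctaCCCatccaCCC
chr17:26879473-26879622, near *WSB1*: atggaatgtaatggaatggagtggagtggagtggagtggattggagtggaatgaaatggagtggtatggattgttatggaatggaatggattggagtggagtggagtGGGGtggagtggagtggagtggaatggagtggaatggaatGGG
The window near *TNP1* has 76 G and 4 C, the one near *NXNL2* has 1 G and 80 C, and the one near *WSB1* has 73 G and 0 C. All 3 are made of short repeated units, which are rich in GT, close to ATCC, and close to GGAAT, respectively.

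The next 3 origins were lower in each knockout line than in WT, and they differ from each other in their makeup.
chr12:127123661-127123810, near *TMEM132C*: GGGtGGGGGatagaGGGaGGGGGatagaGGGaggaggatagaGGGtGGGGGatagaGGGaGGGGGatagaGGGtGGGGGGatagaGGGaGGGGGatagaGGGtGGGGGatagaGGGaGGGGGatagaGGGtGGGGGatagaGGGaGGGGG
chr12:9403889-9404038, near *KLRB1*: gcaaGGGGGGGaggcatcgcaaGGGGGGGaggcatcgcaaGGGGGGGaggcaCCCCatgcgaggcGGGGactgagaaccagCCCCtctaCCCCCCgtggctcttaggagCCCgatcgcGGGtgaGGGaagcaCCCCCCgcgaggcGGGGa
chr1:5586161-5586310, near *NPHP4*: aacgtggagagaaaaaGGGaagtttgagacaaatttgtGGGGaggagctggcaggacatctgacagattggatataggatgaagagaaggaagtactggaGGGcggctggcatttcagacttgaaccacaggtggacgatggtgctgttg
The window near *TMEM132C* has 98 G, 21 runs of G, and 0 C, that near *KLRB1* has 65 G and 44 C, and that near *NPHP4* has 56 G and 18 C.

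The last 4 are the far origin that lies farthest from a protein-coding gene, on the short arm of chromosome 21, and the 3 with the highest WT level in the *ORC1Δ* table, which were added after their levels were seen.
chr21:5037966-5038115: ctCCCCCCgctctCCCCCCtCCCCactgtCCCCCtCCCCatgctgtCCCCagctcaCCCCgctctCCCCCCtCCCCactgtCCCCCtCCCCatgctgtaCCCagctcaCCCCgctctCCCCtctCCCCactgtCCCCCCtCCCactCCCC
chr2:91476981-91477130: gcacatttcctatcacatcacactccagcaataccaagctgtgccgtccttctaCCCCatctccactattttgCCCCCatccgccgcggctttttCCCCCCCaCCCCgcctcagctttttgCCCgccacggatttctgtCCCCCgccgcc
chr16:46390052-46390201: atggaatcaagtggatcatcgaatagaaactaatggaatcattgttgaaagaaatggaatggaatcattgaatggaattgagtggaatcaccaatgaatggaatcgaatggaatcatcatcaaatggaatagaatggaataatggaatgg
chr14:105739078-105739227, in *IGHG1*: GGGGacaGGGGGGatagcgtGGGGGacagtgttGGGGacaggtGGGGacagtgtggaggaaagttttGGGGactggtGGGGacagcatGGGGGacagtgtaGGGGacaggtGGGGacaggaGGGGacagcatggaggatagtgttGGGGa
The chromosome 21 window has 98 C and 12 G, and the *IGHG1* window has 81 G with 12 runs of G. The chromosome 16 window holds copies of the GGAAT unit of human satellite sequence and has 38 G, 13 C, and no run.

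Origins were sparse far from protein-coding genes in every line. The sequence more than 100 kb from a protein-coding gene adds up to 788.5 Mb, which is 28.6% of the 2756 Mb of known autosomal bases, and it has a GC content of 38.1%, against 42.1% elsewhere. The WT list of origins, called by the authors in both replicates, had 3092 far origins, or 3.92 per Mb, against 13.6 per Mb in the remaining sequence. The far density was 4.87 per Mb for *ORC1Δ*, 5.13 for *ORC2Δ*, and 5.71 for *ORC5Δ*, where the remaining sequence had 14.9, 16.9, and 18.5 per Mb. The ratio of the remaining to the far density was thus 3.47 in WT cells, against 3.07 for *ORC1Δ*, 3.30 for *ORC2Δ*, and 3.24 for *ORC5Δ*. Far origins made up 10.3% of the WT list and 11.6%, 10.8%, and 11.0% of the *ORC1Δ*, *ORC2Δ*, and *ORC5Δ* lists. The knockout line had more reads than WT in the origins of each table. For *ORC1Δ*, *ORC2Δ*, and *ORC5Δ*, these were 6691088, 7808290, and 8523971 reads, against 6416892, 6640888, and 6878409 in WT. The part of the number of reads in the densities was not tested.

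Outside gene bodies, the density fell with distance in each list. Inside them, it was lower than in the sequence up to 10 kb away. In WT, it was 16.9 per Mb in the sequence up to 10 kb from a gene, 14.3 inside gene bodies, 8.73 from 50 to 100 kb, 6.80 from 100 to 200 kb, 3.83 from 200 to 500 kb, 2.13 from 500 kb to 1 Mb, and 1.69 beyond 1 Mb. The 209 WT origins beyond 1 Mb were 0.699% of the list. At 500 kb to 1 Mb, the 3 knockout lists lay together at 2.83 to 2.94 per Mb, whereas inside gene bodies they were spread from 15.4 to 19.2 per Mb.

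**Figure D1:**
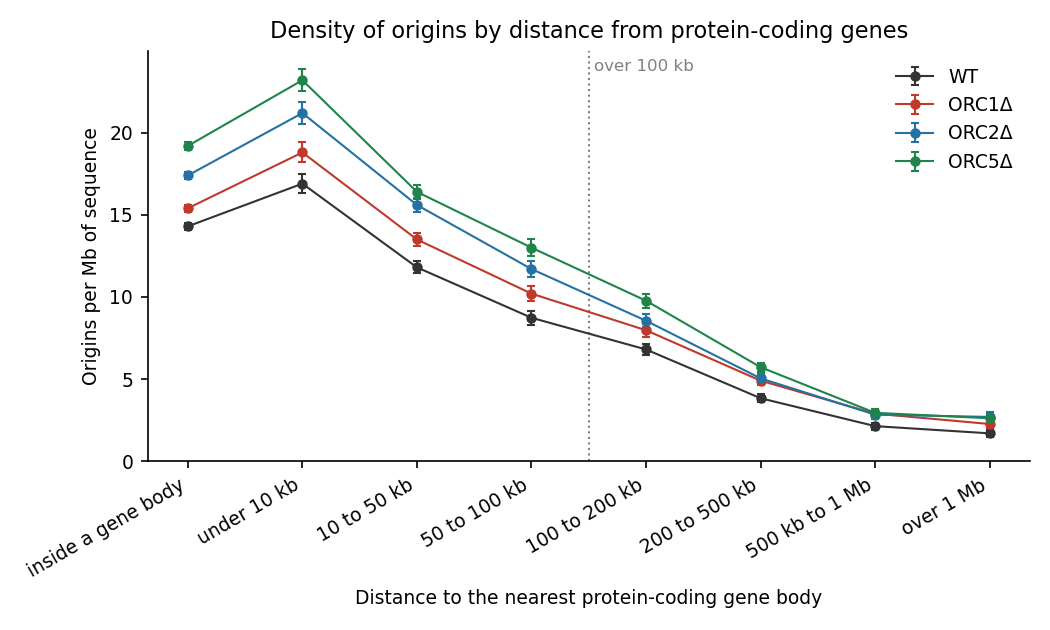
Origins per Mb of known autosomal sequence (y) by distance to the nearest protein-coding gene body (x) in the lists of the 4 lines. Points are counts over the length of sequence at that distance, bars are 95% Poisson counting intervals (normal approximation), and the dotted line marks 100 kb. Density is highest within 10 kb of a gene and lowest beyond 500 kb in all 4 lines, with WT lowest at each distance.

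Density also differed between chromosomes. Far sequence of chromosome 22 held 156 WT origins in 8.92 Mb, or 17.5 per Mb, which is above the density of the remaining sequence of each chromosome except 16, 17, 19, 20, and 22 itself. Chromosomes 17, 16, and 20 followed with 8.31, 8.24, and 7.97 far WT origins per Mb. Chromosome 3 had the lowest density, with 94 WT origins in 54.3 Mb, or 1.73 per Mb, and chromosomes 4 and 5 had 2.07 and 2.20 per Mb. In the remaining sequence of chromosomes 22 and 3, the WT list had 30.2 and 8.50 origins per Mb. Chromosome 19 had the highest density near genes, 45.8 per Mb, but only 6.29 Mb of far sequence, with 36 WT origins (5.72 per Mb).

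As a whole, WT origins far from genes were found again less often in the knockout lists than the others, which did not hold in every class of distance, level, or GC content. Of the 3092 far WT origins, 66.4% (95% Wilson interval 64.7% to 68.0%) overlapped an *ORC1Δ* origin by at least 1 bp, 71.1% (69.5% to 72.7%) an *ORC2Δ* origin, and 77.3% (75.8% to 78.8%) an *ORC5Δ* origin. For the 26816 other WT origins, these shares were 71.7%, 79.4%, and 83.2%. A counterpart in all 3 knockout lists was present for 1617 far WT origins (52.3%, 50.5% to 54.1%), against 61.3% (60.8% to 61.9%) of the other origins. Conversely, 332 far WT origins (10.7%, 9.69% to 11.9%) had none, against 7.90% (7.59% to 8.23%).

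The share found in all 3 lists did not fall steadily with distance. In far origins, it was 51.9% (49.3% to 54.5%) at 100 to 200 kb, 49.4% at 200 to 500 kb, and 56.4% at 500 kb to 1 Mb. Beyond 1 Mb, it was 62.7% (55.9% to 69.0%) of the 209 WT origins, an interval that holds the 61.3% of the other origins. Among other origins, it was 58.9% at 10 to 50 kb and 55.3% (52.9% to 57.7%) at 50 to 100 kb. The latter interval overlapped that at 100 to 200 kb, so a lower share was not particular to far origins. The level of an origin went along with its recovery. When WT origins were split at the quartiles of their WT level, those of the lowest class, up to 15.4 RPM in the *ORC1Δ* table, gave low shares: 25.9% of the far and 26.2% of the other origins had a counterpart in all 3 lists. In the highest class, above 30.7 RPM, the shares were 79.7% (76.2% to 82.8%) of 586 far and 88.4% (87.6% to 89.1%) of 6887 other origins. The far origins were thus recovered less often in the highest class. This class has no upper limit, so the levels of the groups were not matched within it. In the lowest class, the intervals of the groups overlapped. By GC content, the order turned in 1 class. Among WT origins under 40% GC, 56.3% (50.0% to 62.3%) of 247 far and 35.4% (31.5% to 39.4%) of 560 other origins had a counterpart in all 3 lists. From 45% to 60% GC, the far shares were the lower ones, for example 52.1% (48.5% to 55.5%) against 59.9% (58.7% to 61.2%) at 50% to 55%. The intervals of the groups overlapped at 40% to 45%, at 60% to 65%, and at 65% or more. The class under 40% GC was rich in repeated sequence. In 32.7% of its far origins in the *ORC1Δ* table, more than 50% of the 50-base words occurred again in the genome. This share was 9.68% at 40% to 45% GC. The part of repeats in the recovery was not tested.

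Origins of the knockout lists that were absent from the WT list were more frequent far from genes. In *ORC1Δ* cells, 1783 of 3840 far origins (46.4%, 44.9% to 48.0%) were absent from the WT list, against 34.6% (34.0% to 35.1%) of the others. The shares were 45.8% and 36.3% in *ORC2Δ* cells and 47.1% and 38.8% in *ORC5Δ* cells, far and other, respectively. Origins found in a single knockout line and nowhere else made up 19.3% of far *ORC1Δ*, 17.1% of far *ORC2Δ*, and 19.0% of far *ORC5Δ* origins, against 12.0%, 12.1%, and 15.2% of the other origins.

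Far origins had a lower GC content, slightly lower levels, and a slightly stronger skew between the strands than the other origins. In the *ORC1Δ* table, the median far origin had a GC content of 48.5% (interquartile range 44.4% to 53.5%), and the median other origin had 53.1% (47.6% to 59.4%). The absolute GC skew, the difference of G and C over their sum, was 0.379 and 0.353, and the median width was 512 and 536 bp. The median WT level was 16.2 RPM (12.2 to 23.4) in far and 17.9 RPM (13.2 to 27.1) in other origins. The *ORC2Δ* and *ORC5Δ* tables differed in the same directions, with GC contents of 48.8% and 48.9% in far origins and of 53.5% and 53.4% in other origins. In the *ORC1Δ* table, other origins at 50 to 100 kb from a gene lay close to far origins at 100 to 200 kb. Their median GC contents were 50.4% and 49.5%, their absolute GC skews 0.374 and 0.382, and their WT levels 16.5 RPM in both. These differences are thus not particular to the limit of 100 kb.

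CpG islands, CpG-rich stretches that overlap many promoters, were rare among far origins and also among other origins beyond 10 kb from a gene. They overlapped 163 of 4866 far origins in the *ORC1Δ* table (3.35%, 95% Wilson interval 2.88% to 3.89%), against 5183 of 36919 of the others (interval 13.7% to 14.4%). Of the other origins, 13.8% of those up to 10 kb from a gene overlapped an island, but 5.99% at 10 to 50 kb and 4.09% at 50 to 100 kb. Beyond 1 Mb, the share was 10.1%. A G-quadruplex motif, a sequence whose G runs can stack into 4-stranded DNA, was present in 78.7% of far and 87.3% of other origins of that table. These shares count any overlap. When the midpoint of the origin had to lie in the motif, they were 16.6% (15.5% to 17.6%) and 22.4%, respectively. Repeats of ATCC with at least 4 exact copies, in any rotation and on either strand, occurred in 137 far origins (2.82%, 2.39% to 3.32%) and in 2.35% (2.20% to 2.51%) of the others.

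Most far origins lay outside the annotated gene classes examined, which were lncRNA, pseudogene, small RNA, and immunoglobulin or T cell receptor genes. In the *ORC1Δ* table, 3141 of 4866 (64.5%) overlapped no gene of these classes. A lncRNA gene was overlapped by 1636 (33.6%, 32.3% to 35.0%), a pseudogene by 125 (2.57%), and an immunoglobulin or T cell receptor gene by 8. Long non-coding RNA (lncRNA) genes held 15.1% of the other origins. Few lay at a lncRNA start, since the window of 500 bp on either side held 99 of them (2.03%, 1.67% to 2.47%), against 3.62% (3.43% to 3.81%) of the other origins. The 99 origins at lncRNA starts had a median GC content of 54.1%, and 21.2% of them overlapped a CpG island. Their median level in WT was 21.5 RPM.

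Repeated sequence was more common in far origins. In 500 of them in the *ORC1Δ* table (10.3%), more than 50% of the 50-base words of the origin occurred again elsewhere in the genome, against 2.35% of other origins. The share was 6.78% at 100 to 200 kb, 6.91% at 200 to 500 kb, 13.9% at 500 kb to 1 Mb, and 43.9% beyond 1 Mb. How reads that fit several copies were placed was not given in the sources used here, and the part of repeats in the levels was not tested.

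The change against WT was small in the median far origin. In *ORC1Δ* cells, the median log2 fold of far origins was 0.074 (95% interval of the median 0.064 to 0.088), against −0.026 (−0.030 to −0.021) for the other origins. In *ORC2Δ* cells, it was −0.055 (−0.066 to −0.045), against −0.039 (−0.041 to −0.036). With median-of-ratios or TMM scaling, the far median in *ORC2Δ* cells was −0.015, while its difference from the other origins remained −0.016. In *ORC5Δ* cells, it was −0.014 (−0.021 to −0.007), against −0.002 (−0.005 to −0.000). Of the far origins, 58.4% were higher in *ORC1Δ* cells than in WT, against 42.9% in *ORC2Δ* and 47.6% in *ORC5Δ* cells. Of all autosomal origins, 48.4%, 43.8%, and 49.3% were higher in these lines. The far share was thus above the general share in *ORC1Δ* cells and slightly below it in the other lines.

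Upregulated and downregulated origins are those whose RPM differed from WT by 1.5-fold or more. In *ORC1Δ* cells, 461 far origins were upregulated (9.47%, 95% Wilson interval 8.68% to 10.3%), against 7.0% of all 41785 autosomal origins and 6.67% (6.42% to 6.93%) of the other origins. Downregulated were 137 (2.82%, 2.39% to 3.32%), against 3.95% of all and 4.10% (3.90% to 4.31%) of the other origins. In *ORC2Δ* cells, 312 far origins were upregulated (6.33%, 5.68% to 7.04%) and 221 downregulated (4.48%, 3.94% to 5.10%), against 4.62% and 3.61% of all 43698 origins. In *ORC5Δ* cells, the counts were 133 (2.56%, 2.16% to 3.02%) and 44 (0.846%, 0.631% to 1.13%), against 2.05% and 0.682% of all 46021 origins. The 3 comparisons share the WT reads, so their calls are not independent of each other.

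In *ORC1Δ* cells, the share of upregulated origins was higher and that of downregulated origins lower far from genes. With folds corrected for GC content as described below, 283 far origins instead of 461 were upregulated in *ORC1Δ* cells (5.82%, 5.19% to 6.51%), against 4.52% (4.32% to 4.74%) of the other origins and 4.67% of all. Downregulated were then 174 instead of 137 (3.58%, 3.09% to 4.14%), against 2.75% (2.59% to 2.92%) and 2.85%, so the upregulated share remained the higher one far from genes and the order of the downregulated shares turned. In *ORC2Δ* cells, both shares were higher. Outside 5 Mb blocks with a shifted median (described at the end), 3.42% (2.94% to 3.98%) of far and 2.85% (2.69% to 3.03%) of other origins were downregulated there, and the intervals overlapped. In *ORC5Δ* cells, the upregulated share was higher, and the interval of the downregulated share overlapped that of the other origins (0.587% to 0.745%). Other origins beyond 10 kb from a gene were closer in their upregulated share to the far origins than those inside gene bodies, so these contrasts are not particular to the limit of 100 kb. In *ORC1Δ* cells, 6.21% of origins inside gene bodies were upregulated and 4.48% downregulated, against 8.19% and 2.83% at 10 to 50 kb, 8.47% and 3.28% at 50 to 100 kb, and 9.41% and 3.41% at 100 to 200 kb. In *ORC2Δ* cells, 3.79% inside gene bodies, 6.01% at 50 to 100 kb, and 6.58% at 100 to 200 kb were upregulated. In *ORC5Δ* cells, 2.97% were upregulated at 50 to 100 kb, which is above the 2.64% at 100 to 200 kb and the 2.56% of all far origins. The calls went along with the lists. Of the 461 upregulated far origins in *ORC1Δ* cells, 374 were in the *ORC1Δ* list alone, 73 in both lists, and 14 in the WT list alone. Of the 137 downregulated ones, 112 were in the WT list alone. A table holds the origins of both lists, and far origins were more often in the knockout list alone (36.6% against 27.5% of the other origins in the *ORC1Δ* table). The part of this makeup in the folds was not tested.

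GC content went along with the fold of far origins, most clearly in *ORC1Δ* cells. The 950 far origins with a GC content of 40% to 45% had a median log2 fold of 0.217 (0.188 to 0.245), and the 111 with 65% or more had −0.277 (−0.328 to −0.208). Other origins of the same GC content had medians of 0.242 and −0.324. At 45% to 50%, the medians were 0.157 in both groups, 1468 far and 7945 other origins. After subtraction of the running median over GC content, the difference between the groups in *ORC1Δ* cells went from 0.100 to −0.007. In *ORC2Δ* cells, far origins had the lower median in each class from 40% upward, for example −0.062 (−0.080 to −0.038) against −0.010 at 45% to 50% and −0.107 (−0.129 to −0.079) against −0.061 at 55% to 60%. In *ORC5Δ* cells, all medians of far origins lay between −0.070 and 0.019.

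**Figure D2:**
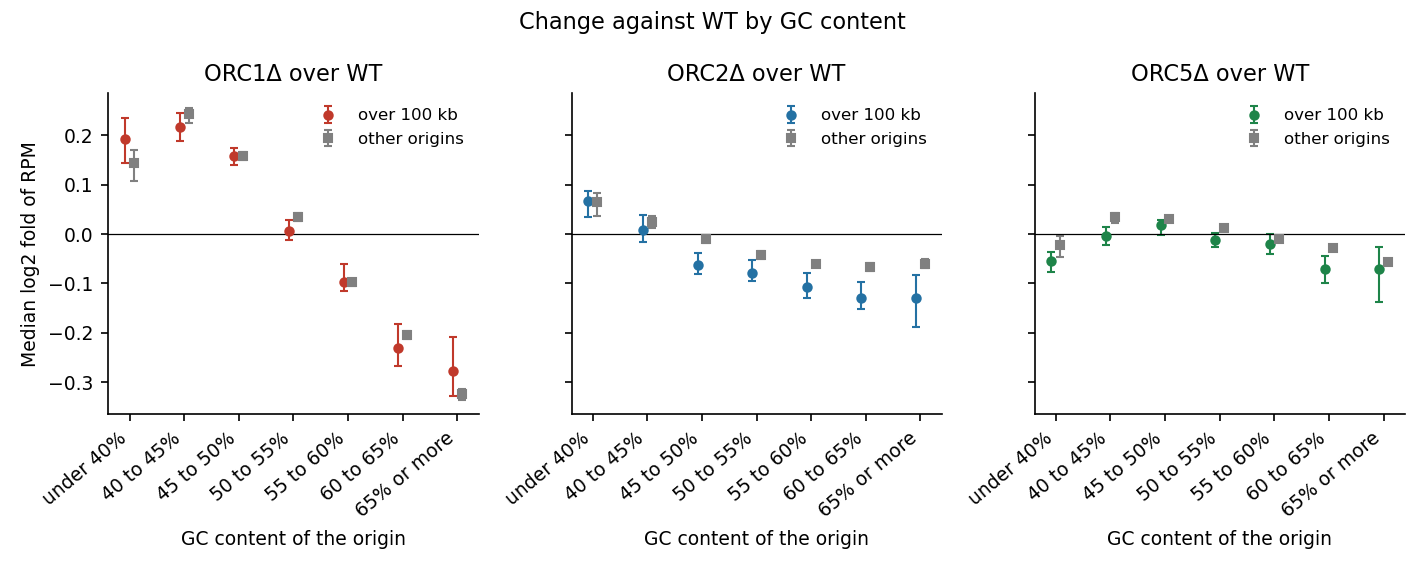
Median log2 fold of RPM over WT (y) in classes of GC content (x), for far origins (coloured circles) and other origins (grey squares) in each knockout line. Bars are 95% intervals of the median from order statistics. In *ORC1Δ* cells, both groups lie above 0 up to 55% GC and below 0 beyond it, and in *ORC2Δ* cells, the far origins lie below the other origins from 40% GC upward.

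Upregulated far origins were most frequent where the GC skew was strong. In *ORC1Δ* cells, 69.4% of the 173 far origins in the highest class of absolute GC skew (0.8 or more) were upregulated, with a median log2 fold of 0.817, and 36.8% of the 291 with a skew of 0.6 to 0.8. Below a skew of 0.6, 3.98% to 6.97% were upregulated. In other origins, the shares were 69.1% and 38.3% in these classes. Below a skew of 0.2, 5.27% of 740 far and 97 of 4951 other origins were upregulated. Far origins with a skew of 0.8 or more were upregulated in 59.6% of 188 cases in *ORC2Δ* cells and in 41.1% of 168 cases in *ORC5Δ* cells, with median log2 folds of 0.724 and 0.497. Other origins of this class were upregulated in 63.4% and 43.6% of cases. Far origins with an ATCC repeat, whose median absolute GC skew was 0.754 in the *ORC1Δ* table, had a median log2 fold of 0.607 (n = 137) for *ORC1Δ*, 0.468 (n = 128) for *ORC2Δ*, and 0.377 (n = 135) for *ORC5Δ*. In other origins with such a repeat, the medians were 0.548, 0.401, and 0.352.

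**Figure D3:**
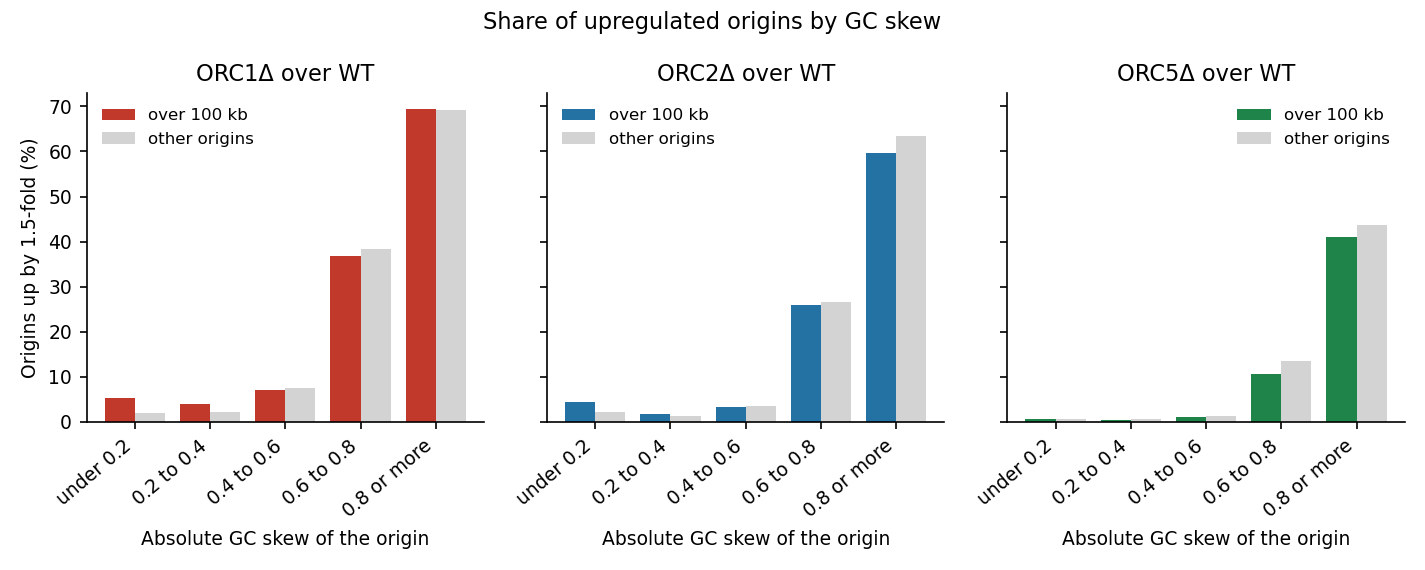
Share of origins upregulated by 1.5-fold (y, in %) in classes of absolute GC skew (x), for far origins (coloured) and other origins (grey) in each knockout line. In all 3 lines, the share passes 40% only at a skew of 0.8 or more, for far and other origins alike.

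Far origins that overlapped a CpG island were lower than in WT. The 163 far origins at CpG islands in the *ORC1Δ* table had a median log2 fold of −0.297. Of these, 14.1% were downregulated and 1.84% upregulated, against 3.95% and 7.0% of all origins. The 5183 other origins at islands were close to this, with a median of −0.261, 13.0% downregulated, and 0.926% upregulated. They were the stronger origins, with a median of 27.0 RPM in WT against 16.1 RPM in far origins without an island. In *ORC2Δ* cells, the 190 far origins at islands had a median of −0.180, against −0.047 for the other origins at islands, and in *ORC5Δ* cells the 178 far ones had −0.130, against −0.046. Of these far origins, 5.26% and 3.37% were downregulated in the 2 lines, against 3.61% and 0.682% of all origins. Upregulated were 3.16% and 1.69%, against 4.62% and 2.05%. In the *ORC1Δ* table, far origins at islands had a median GC content of 62.5%. Far origins with 60% to 65% GC had a median log2 fold of −0.230 there.

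The far origins with the largest increases in all lines were taken by their smallest log2 fold over the 3 lines, among those with at least 100 reads of both lines in each table. They were chosen for these values, which are thus a description, and the 3 comparisons share the WT reads. The origin at chr2:217068665-217069853 overlaps the lncRNA gene *DIRC3-AS1*, 208600 bp from *TNP1*, which encodes a protein that replaces histones in sperm. It had 71 WT and 286 *ORC1Δ* reads (11.1 and 42.7 RPM), so its log2 fold was 1.95 (1.57 to 2.35 by the Clopper–Pearson method). In *ORC2Δ* cells, it had 39.7 RPM against 10.4 in WT, a log2 fold of 1.93 (1.55 to 2.33). The overlapping row of the *ORC5Δ* table had 33 WT and 104 *ORC5Δ* reads and a log2 fold of 1.35 (0.77 to 1.96). With 4.8 RPM in WT, against 11.1 and 10.4 RPM in the other tables, that row covers only part of the WT signal. Its fold, by which the origin was ranked, is thus not directly comparable with the other 2. The origin near *NXNL2* (chr9:88730222-88731199, 145947 bp away) had 14.8 RPM in WT and 42.4 RPM in *ORC1Δ* cells, and its interval of the log2 fold was 1.18 to 1.87. In the other lines, the log2 fold was 1.26 (0.90 to 1.62) for *ORC2Δ* and 1.22 (0.86 to 1.59) for *ORC5Δ*. The origin near *WSB1* (chr17:26879242-26880130, 413945 bp away), a repeat of the satellite unit shown above, had 70 WT and 187 *ORC1Δ* reads, a log2 fold of 1.36 (0.95 to 1.77). It had 10.1 and 28.9 RPM in the *ORC2Δ* table (interval of the log2 fold 1.12 to 1.94), and a log2 fold of 1.20 (0.79 to 1.63) in the *ORC5Δ* table. None of these 3 was in the WT list.

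The remaining pair lay on chromosomes 8 and 4. Sequences were shown for the first 3 of the 5 in order of their smallest fold, passing over chromosome 8, from which none is printed. The chromosome 8 origin, between *MRPL15* and *SOX17*, had 74 WT and 278 *ORC1Δ* reads and a log2 fold of 1.85 in *ORC1Δ*, with 1.43 for *ORC2Δ* and 1.26 for *ORC5Δ*. The chromosome 4 origin (chr4:179663700-179664420) lies 2221262 bp from *AGA*, the gene of a lysosomal enzyme that breaks down glycoproteins. It had 53 WT and 160 *ORC1Δ* reads and log2 folds of 1.53 (1.08 to 2.01), 1.30 (0.82 to 1.81), and 1.14 (0.64 to 1.65). Both have a GC skew beyond 0.8 in size (−0.87 and −0.82) and a low share of repeated 50-base words (0 in both).

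The 5 far origins with the largest decreases in all 3 lines were taken by the same measure. The strongest of them in WT, at chr12:127123638-127125085, lies 1142084 bp from *TMEM132C* and had 334 WT and 208 *ORC1Δ* reads (52.1 and 31.1 RPM). Its log2 fold was −0.74 for *ORC1Δ*, −0.73 (−0.97 to −0.48) for *ORC2Δ*, and −0.72 (−0.96 to −0.48) for *ORC5Δ*. With a GC skew of 0.97, it is more skewed than the 5 origins that were higher, and 45.6% of its 50-base words occur elsewhere in the genome. The origin at chr12:9403881-9404401, in a pseudogene near *KLRB1*, which encodes a receptor of natural killer cells, had 93 WT reads in each table, against 49 *ORC1Δ*, 70 *ORC2Δ*, and 59 *ORC5Δ* reads. The one at chr1:5586022-5586451, in a lncRNA gene near *NPHP4*, had 70 WT reads and 38, 35, and 56 reads. The last 2, near *TAFA5* (chr22:48205399-48205949) and *FOXD1* (chr5:73339293-73339654), had log2 folds between −0.90 and −0.61. For these 4, the intervals reached at least as close to 0 as −0.18 in one of the lines.

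**Figure D4:**
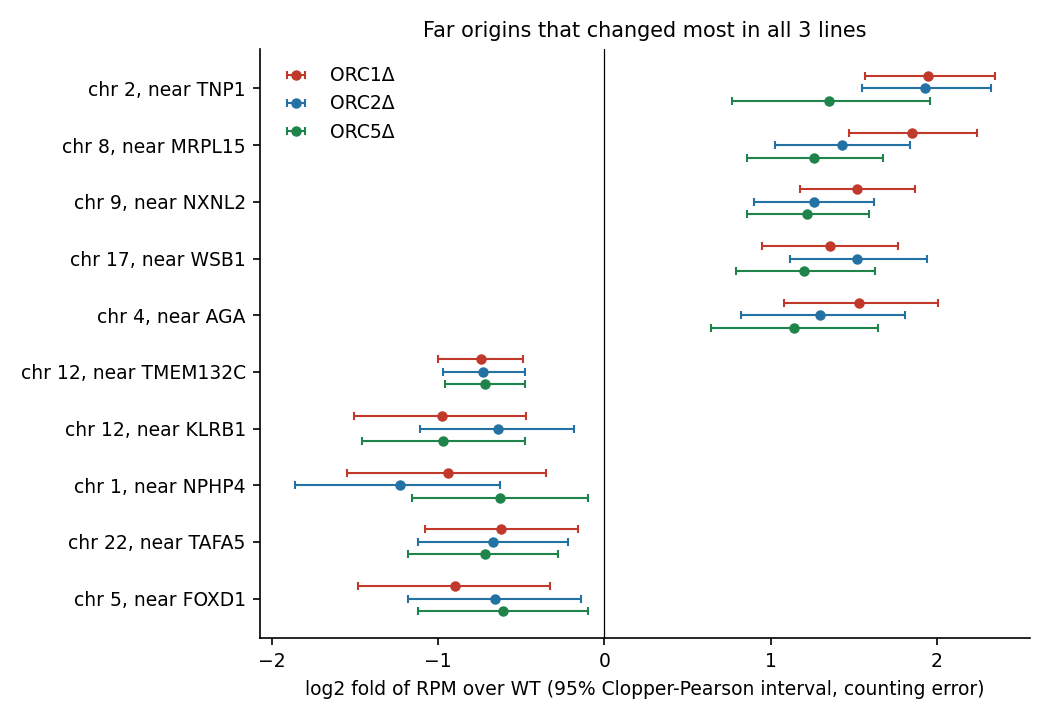
Log2 fold of RPM over WT (x) of the 5 far origins with the largest increase and the 5 with the largest decrease by the smallest fold over the 3 lines (y, named by chromosome and nearest protein-coding gene). Bars are 95% Clopper–Pearson intervals of counting error. The increases lie between 1.14 and 1.95 and the decreases between −1.23 and −0.61.

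The largest folds of each line were larger than these. The highest in *ORC1Δ* cells, at chr17:73953881-73954427, 249154 bp from *RPL38*, a gene of the large ribosomal subunit, had 21 WT and 155 *ORC1Δ* reads, a log2 fold of 2.82 (2.16 to 3.56). The overlapping row of the *ORC2Δ* table is 1581 bp wide against 547 bp and had 209 WT reads, so its log2 fold of 1.05 (0.82 to 1.29) covers more sequence and cannot be set against that value. The highest in *ORC2Δ* cells, at chr9:41781905-41782525, 107788 bp from *CNTNAP3B*, had 19 and 165 reads, a log2 fold of 2.88 (2.20 to 3.65), and 65.4% of its words are repeated elsewhere. The highest in *ORC5Δ* cells, at chr7:27367900-27368548, 117406 bp from the homeobox gene *EVX1*, had 39 and 150 reads, a log2 fold of 1.63 (1.12 to 2.18). In the *ORC2Δ* table, it had 6.02 RPM in WT and 17.3 RPM in *ORC2Δ* cells (interval of the log2 fold 1.00 to 2.07). The lowest log2 fold was −1.16 (−1.61 to −0.72) for *ORC1Δ*, at chr2:90245033-90245612. It was −1.71 (−2.35 to −1.10) for *ORC2Δ*, at chr18:39829930-39830540, and −1.18 (−1.70 to −0.68) for *ORC5Δ*, at chr6:168860797-168861188. The chromosome 18 origin lies in a 5 Mb block whose median log2 fold over all origins, after correction for GC content, was beyond 0.25 in size in *ORC2Δ* cells.

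None of the 10 far origins with the highest WT level differed by 1.5-fold or more in *ORC1Δ* cells, where 4 were higher and 6 lower than in WT. With 7.0% of all origins upregulated and 3.95% downregulated, a count of 0 among 10 says nothing particular about them. Their log2 folds ran from −0.56, at chr17:26773158-26775735 (160 RPM in WT and 108 RPM in *ORC1Δ* cells), to 0.27, and those at chr17:21841907-21844123, chr2:91441849-91443281, and chr14:105744577-105746604 were −0.45, −0.38, and −0.32. The highest in WT, at chr2:91476783-91479443 in the pericentromeric region of chromosome 2, is 2661 bp wide, lies 2725853 bp from *RPIA*, and overlaps a CpG island. It had 254 RPM in WT and 216 RPM in *ORC1Δ* cells, and a log2 fold of −0.24 (−0.34 to −0.14), with −0.21 (−0.31 to −0.11) for *ORC2Δ* and −0.23 (−0.32 to −0.13) for *ORC5Δ*. The next, at chr16:46389631-46391185, lies 187405 bp from *SHCBP1* and had 227 RPM in WT and 271 RPM in *ORC1Δ* cells. Its log2 folds were 0.25 (0.15 to 0.35), 0.09 (−0.01 to 0.19), and −0.09 (−0.19 to 0.02). Words repeated elsewhere made up 49.9% of it. The third, at chr14:105738187-105740085, lies in *IGHG1*, the gene of an immunoglobulin heavy chain constant region, and had log2 folds of 0.05 (−0.05 to 0.16), 0.07 (−0.03 to 0.17), and 0.01 (−0.09 to 0.11).

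The *IGHG1* origin belongs to a group in the heavy chain locus, which counted as far because GENCODE does not class immunoglobulin genes as protein-coding. This group was picked out after its levels were seen. Within 50 kb of the heavy chain constant genes, the *ORC1Δ* table had 23 far origins, with a median of 35.2 RPM and a range from 6.70 to 226 RPM in WT. Of the 10 far origins with the highest WT level, 4 were in this group. Those in *IGHG1*, in *IGHG3*, and in the pseudogene *IGHGP* had GC skews of 0.58 to 0.59, and their levels in *ORC1Δ* cells were 235, 178, and 201 RPM, against 226, 181, and 189 RPM in WT. The remaining one of the 4, at chr14:105744577-105746604, was lower in *ORC1Δ* cells, with 130 RPM against 162 RPM in WT. The median log2 fold of the 23 origins in *ORC1Δ* cells was −0.27, with 3 upregulated and 1 downregulated (7.0% and 3.95% of all origins), and it was 0.04 and 0.02 in the *ORC2Δ* and *ORC5Δ* tables. The skewed origin at chr14:105690869-105691396, 12598 bp from *IGHA1*, was low in WT, with 43 reads, and had 112 reads in *ORC1Δ* cells, a log2 fold of 1.32 (0.80 to 1.86).

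Far origins were spread unevenly over the stretches between protein-coding genes. Of 1491 stretches longer than 200 kb, 801 held at least 1 far origin of the *ORC1Δ* table and 690 held none. The median occupied stretch held 3 far origins, and the 10 fullest held 519 far origins, or 10.7%. The fullest was the stretch of 22.5 Mb across the centromere of chromosome 1, between *SRGAP2C* and *H3-7*, with 75 far origins in the *ORC1Δ* table. In the median origin of this stretch, all 50-base words were found again in the genome. Its medians were 13.4 RPM in WT and 14.9 RPM in *ORC1Δ* cells, and 63 of the 75 were higher in *ORC1Δ* cells, with a median log2 fold of 0.21 before and 0.03 after the correction for GC content. In *ORC2Δ* cells, 61 of 95 were higher, with a median of 0.07, and in *ORC5Δ* cells, 32 of 77 were higher, with a median of −0.04.

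The next stretch, 1.12 Mb of chromosome 22 between *CRYBA4*, which encodes a lens crystallin, and *MN1*, a gene of transcriptional control, had 0% repeated words in the median origin. It held 63 far origins in the *ORC1Δ* table, or 68.7 per Mb of far sequence, with a median spacing of 9.5 kb and a median GC content of 50.2%. Of these, 21 overlapped a lncRNA gene. The WT list had 45 far origins there, and the *ORC1Δ*, *ORC2Δ*, and *ORC5Δ* lists had 49, 58, and 57. Median levels were 15.6 RPM in WT and 17.2 RPM in *ORC1Δ* cells, but the median log2 fold was 0.02, with 34 origins higher and 29 lower. The log2 folds ran from −0.73 to 1.42, with 10 origins upregulated and 2 downregulated, against 7.0% and 3.95% of all origins. In *ORC2Δ* cells, the median level was 13.6 RPM against 15.1 RPM in WT, with a median log2 fold of −0.04, and 7 of 65 were upregulated (4.62% of all origins) and 1 downregulated (3.61%). In *ORC5Δ* cells, it was 13.7 RPM against 15.0 RPM, with a median log2 fold of −0.04, and 3 of 63 were upregulated (2.05%) and 1 downregulated (0.682%). The third was the short arm of chromosome 21 up to *TPTE*, with 59 far origins and 42.8% repeated words in the median origin.

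**Figure D5:**
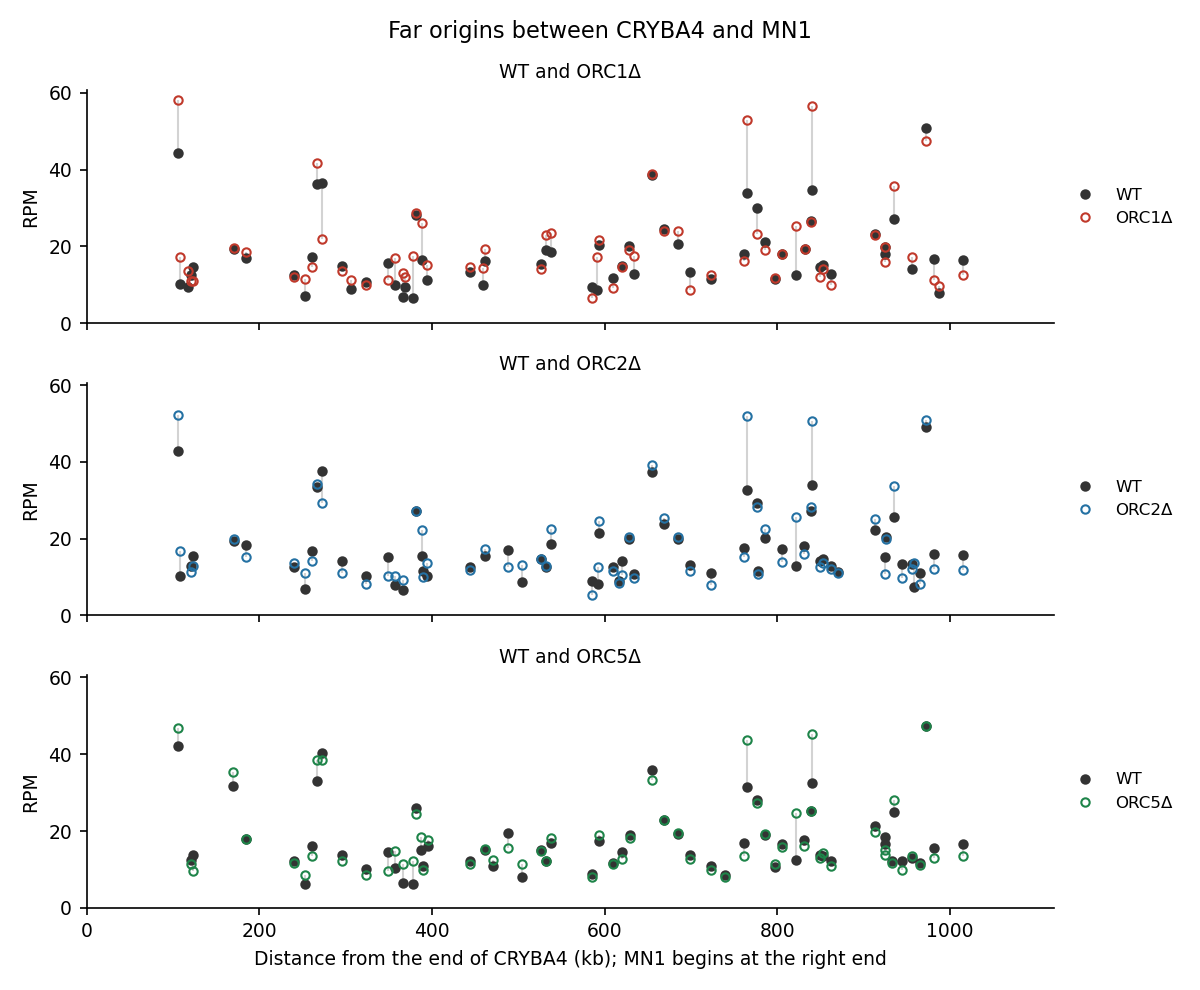
RPM (y) of each far origin between *CRYBA4* and *MN1* on chromosome 22, by the distance of its midpoint from the end of *CRYBA4* (x, in kb), in WT (filled) and in 1 knockout line (open) per panel. Grey lines join the values of an origin. The log2 folds run from −0.73 to 1.42 in *ORC1Δ*, from −0.75 to 1.00 in *ORC2Δ*, and from −0.60 to 1.01 in *ORC5Δ* cells.

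Among lncRNA genes, 744 held a far origin of the *ORC1Δ* table, 265 of them only 1 and 84 at least 5. ENSG00000283294, which is 117 kb long and lies on chromosome 18 (chr18:14225224-14342505), held most, 24 far origins, with a median of 18.9 RPM in WT and log2 folds between −0.17 and 0.40 in *ORC1Δ* cells, none of them upregulated or downregulated. *MIR3667HG* on chromosome 22 (chr22:49414524-49657542), the host gene of a microRNA, held 19. Of these, 9 were upregulated and 2 downregulated in *ORC1Δ* cells, where 7.0% and 3.95% of all origins were, with a median log2 fold of 0.54. In *ORC2Δ* and *ORC5Δ* cells, 5 and 4 of 19 were upregulated, against 4.62% and 2.05% of all origins, with medians of 0.08 and 0.28. The gene was named for its number of origins, and no test of these counts was possible. ENSG00000286481 on chromosome 2 (chr2:121902501-122887691) held 19 as well, over 985 kb, with a median log2 fold of 0.04 in *ORC1Δ* cells.

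In the *ORC1Δ* table, the 3 origins farthest from a protein-coding gene lay on the short arm of chromosome 21, at most 5483308 bp from *TPTE*. The farthest, at chr21:5037771-5038244, had 18.4 RPM in WT and log2 folds of −0.02 (−0.40 to 0.35), 0.17 (−0.19 to 0.53), and −0.03 (−0.42 to 0.36), and 84.0% of its words were repeated. The gene annotated next to the farthest origin, ENSG00000277117, has the type artifact in GENCODE. The second, at chr21:5051391-5051923, had log2 folds of 0.67 (0.19 to 1.16) for *ORC1Δ* and 0.21 (−0.31 to 0.74) for *ORC5Δ*. The third, at chr21:5052087-5052502, had 0.24 (−0.22 to 0.70) and 0.21 (−0.23 to 0.66). A single row of the *ORC2Δ* table overlapped both and had 0.74 (0.44 to 1.06). Beyond 1 Mb, the *ORC1Δ* table had 337 far origins, with 52 on chromosome 1, 45 on chromosome 22, and 44 on chromosome 2. They had a median absolute GC skew of 0.241 and a median width of 469 bp, against 0.382 and 515 bp at 100 to 200 kb. The 148 with more than 50% repeated words had a median log2 fold of 0.16 in *ORC1Δ* cells, and the 189 without had 0.01.

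Some calls lay in blocks with a shifted median. In *ORC2Δ* cells, 60 of the 221 downregulated and 38 of the 312 upregulated far origins were in 5 Mb blocks whose median log2 fold, after correction for GC content, was beyond 0.25. These blocks held 4.50% of far and 2.13% of other origins, and 275 of the 1358 downregulated other origins. In the first 5 Mb of chromosome 6, the 16 far origins had a median log2 fold of −1.11 and all origins had −0.93, and 13 of the 16 were downregulated, as were 67 of all 85 origins of the block and 3.61% of all origins of the table. In the first 5 Mb of chromosome 2, 53 far origins had a median of 0.38 and all origins 0.39. Without such blocks, 161 far origins were downregulated and 274 upregulated (interval 5.19% to 6.53%) in *ORC2Δ* cells, against 1083 and 1592 (interval 4.0% to 4.4%) of the 37944 other origins that remained. In *ORC1Δ* cells, 31 of 461 upregulated far and 113 of 2464 upregulated other origins were in such blocks. Chromosome 8 was higher in *ORC1Δ* cells as a whole, with a median log2 fold of 0.22 in its 470 far and 0.15 in its other origins, and 70 of the far origins (14.9%, 12.0% to 18.4%) were upregulated, against 10.3% (9.09% to 11.7%) of its other origins and 7.0% of all origins of the table. A change in the number of copies of a region and a change in origin use cannot be told apart in these tables.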

How the data were processed

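SNS-seq reads of 8 samples, 2 biological replicates of each of 4 HCT116 p53−/− lines, were processed by the authors before deposition. Per the labels, reads were trimmed with Trim Galore 0.6.4, mapped to GRCh38 (hg38) with Bowtie, and used to call peaks with MACS2, and bedtools compared the peaks. Origins of a line are the peaks found in both replicates. The deposited tables hold raw counts per origin, 1 table per knockout line with WT, in which the replicates of a line are merged. The deposited lists give the position of each origin (other values, a start and an end). The counting tool and the treatment of duplicates and of reads that map several times were not given in the sources used here.

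Counts were scaled to the sum of a line's reads over all origins of its table (RPM) and compared as log2 folds. Since 1 merged count per line leaves no spread between replicates, no model was fitted. Intervals at 95% are Clopper–Pearson for folds of single origins, Wilson for shares, Poisson for densities, and order statistics for medians, and they cover counting error, or for shares and medians the choice of origins. Distances were taken to the bodies of 19111 protein-coding genes of GENCODE 44, in which immunoglobulin and T cell receptor genes have their own types. CpG islands were taken from the genome sequence (at least 200 bp, 50% GC, and a ratio of observed to expected CpG of 0.6), and G-quadruplex motifs were windows of 25 bases with a G4Hunter score of 1.52 or more. The running median over GC content took 2001 origins. The members, gene classes, and lists were chosen with earlier results of these data known. Origins were named by rule: the 5 highest and 5 lowest in all lines, the 3 strongest in WT, the 3 farthest from genes, the nearest to 100 kb on each side, the highest and lowest per line, and the 3 fullest stretches and lncRNA genes. The heavy chain locus was described after its levels were seen. Scripts were tested on simulated counts. Python 3.11.15, numpy 2.4.6, pandas 2.3.3, scipy 1.17.1, and edgeR 4.0.16 (scaling factors only) were used. Alternatives changed the distance, the gene classes, the scaling, the threshold, the filter, the GC correction, the chromosomes, and the overlaps.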

Additional observations from a re-analysis of the deposited data

Results flagged for a closer look

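Of the 3563 far origins matched across all 3 tables, 1 was downregulated in *ORC1Δ* cells and upregulated in *ORC2Δ* cells, which is a difference between lines, and 0 went the other way. Over all 33482 matched origins, the counts were also 1 and 0. It rests on 1 merged count per line, both comparisons share the WT reads, and the difference was not tested. Chromosome X was outside the description. There, 41 far origins were listed for *ORC1Δ*, with a median log2 fold of 0.03, 52 for *ORC2Δ*, with 0.11, and 50 for *ORC5Δ*, with 0.01.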

How the results depend on the processing

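No paired analysis was possible because the tables merge the replicates of a line, and leaving out a replicate was not possible for the same reason. Of 243 alternative values of 44 results, 160 stayed within the interval of the reported value (for counts, within 1.5 times it), 80 moved by more, and 3 changed sign. The cause of these shifts was not tested, and some alternatives keep fewer origins. A limit of 50 kb gave far shares of 17.6%, 17.3%, and 17.4% in the *ORC1Δ*, *ORC2Δ*, and *ORC5Δ* tables, a density ratio in WT of 2.92, GC differences of −4.08, −4.24, and −4.06 percentage points, 218 downregulated origins in *ORC1Δ*, and 469 and 216 upregulated in *ORC2Δ* and *ORC5Δ* cells. A limit of 200 kb gave 6.46%, 6.17%, and 6.11%, a ratio of 4.52, GC differences of −5.09, −5.32, and −4.92 points, 257, 165, and 70 upregulated, and 63, 111, and 20 downregulated origins. With distances to lncRNA bodies too, the shares were 2.66%, 2.53%, and 2.48%, with 125, 69, and 28 upregulated and 20, 33, and 7 downregulated origins, and the difference of the median log2 fold, far minus other, was 0.142 in *ORC1Δ* and turned to 0.016 from −0.016 in *ORC2Δ* cells. These choices of distance leave the shares over all origins at 7.0%, 4.62%, and 2.05% upregulated and 3.95%, 3.61%, and 0.682% downregulated. The counts are given without their own shares, so they say nothing about far origins against all origins. A 2-fold threshold left 116, 91, and 15 upregulated and 11, 35, and 4 downregulated origins, and a minimum of 200 reads left 223, 154, and 80 upregulated and 48, 57, and 11 downregulated origins. At 2-fold, 2.38%, 1.85%, and 0.288% of far origins were upregulated, against 1.69%, 1.41%, and 0.259% of all, and 0.226%, 0.710%, and 0.0769% downregulated, against 0.340%, 0.490%, and 0.0456%. At 200 reads, the shares were 7.92%, 5.51%, and 2.52% against 5.49%, 3.92%, and 1.72%, and 1.70%, 2.04%, and 0.346% against 2.75%, 430 of 28233 origins, and 0.247%. A minimum of 50 reads removed none. After the GC correction, the differences were −0.007, −0.037, and −0.022, the median of far origins in *ORC1Δ* cells was −0.007, and 283 were upregulated there. Median-of-ratios and TMM scaling both gave a far median of −0.015 in *ORC2Δ* cells in place of −0.055, and scaling to origins inside genes gave −0.044 there and 0.106 in *ORC1Δ* cells in place of 0.074, while the differences from the other origins stayed at 0.100, −0.016, and −0.012. With the midpoint required to lie in the feature, the share of far origins at a G-quadruplex motif was 16.6%, 17.3%, and 17.7%, and that at a CpG island 2.26%, 2.45%, and 2.12%. Without chromosome 2, far shares were 11.3%, 10.8%, and 10.9%. The 500 bp around the midpoint gave a GC difference of −4.80 points in the *ORC5Δ* table. Without origins made mostly of repeated words, an alternative chosen after seeing the data, the shares were 10.8%, 10.4%, and 10.5%, and the GC difference in the *ORC2Δ* table was −4.38 points. Counting immunoglobulin and T cell receptor genes as genes was also chosen after seeing the data.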
